A study of Mus musculus with 18 samples.

Results

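Circular RNAs (circRNAs) from 4 host genes, Dcp2, Wdpcp, Smarcad1 and Slc30a7, were followed through nuclear, cytoplasmic and whole-cell libraries of wild-type (WT) and XPO4 knockout (KO) NIH/3T3 cells, together with the mRNA of the same genes. The circles taken were all those listed with both ends inside the span of one of these genes, which gave 18 of the 16171 circles listed over the 12 circRNA libraries, 2 from Dcp2, 7 from Wdpcp, 6 from Smarcad1 and 3 from Slc30a7. The genes were chosen by cytoplasmic junction reads, because earlier results of these data had shown circles of theirs with reads in the KO cytoplasm and none in the WT cytoplasm. This held for Dcp2, Wdpcp and Smarcad1. It did not hold for Slc30a7, none of whose circles was without WT cytoplasmic reads, and which was known from its nuclear reads instead. Cytoplasmic values of all 4 hosts and nuclear values of Slc30a7 are therefore given as a description, with counting intervals at most and no p, and tests were kept for the whole-cell libraries and for mRNA.

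NIH/3T3 is a mouse embryonic fibroblast line. The XPO4 KO cells were 1 line made with CRISPR-Cas9, in which both copies of the gene carry an identical edit, and no rescued line was among the samples, so that genotype and line cannot be told apart. RNA of each fraction was digested with RNase R, which degrades linear RNA, and sequenced from 2 WT and 2 KO libraries, and mRNA was sequenced from 3 WT and 3 KO libraries. Nothing in the labels says that the replicates came from separate cultures, so p-values measure the spread between these libraries, which may be technical.

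A circRNA forms by backsplicing, when the donor site at the end of an exon is joined to the acceptor site at the start of the same or an earlier exon. The closed circle has no cap and no tail, is made in the nucleus, and is mostly found in the cytoplasm after export. Exportin 4, encoded by Xpo4, is a transport receptor of the importin-beta family that carries cargo through the nuclear pore. Dcp2 is the catalytic subunit of the decapping enzyme, which removes the cap of mRNAs bound for decay. Wdpcp is an effector of planar cell polarity and of cilium formation. Smarcad1 is an SNF2-family chromatin remodeller with roles in heterochromatin maintenance and in the resection of broken DNA ends. Slc30a7 encodes ZnT7, which moves zinc from the cytosol into the Golgi apparatus.

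All 18 circles had both ends on annotated exon edges, with AG before the first exon and GT after the last (GRCm38, GENCODE annotation). Of the 16171 circles listed, 15426 had both ends on exon edges. All of these had AG and GT there, and the bases beside the other circles were not read. The circles of a host often shared an end and differed in the other. The backsplice junctions below are those of such families, as read from the genome, with the last 15 bases of the final exon in lower case and the first 15 bases of the first exon in capitals. Exons were numbered along the transcript from its 5′ end. The 3 Wdpcp circles that began at exon 7 (chr11:21689568-21695305, chr11:21689568-21712071 and chr11:21689568-21724636, + strand) and the 3 Smarcad1 circles that began at exon 3 (chr6:65052620-65067138, chr6:65052620-65058132 and chr6:65052620-65056568, + strand) are shown because 1 of the 3 circles of each host had cytoplasmic reads in KO only. The Slc30a7 circles (chr3:115954052-115984974, chr3:115978644-115984974 and chr3:115978644-115993039, - strand) are shown because they were the only ones with nuclear reads.
Wdpcp exons 7 to 9: caaggaggattggagCTCCTGTTTGGTTCA
Wdpcp exons 7 to 10: tactgtttaaacttgCTCCTGTTTGGTTCA
Wdpcp exons 7 to 12: ccaccacctgctcagCTCCTGTTTGGTTCA
Smarcad1 exons 3 to 6: ccgcgaggggaccgtAAGATTCTAGTGTTC
Smarcad1 exons 3 to 5: tgtttggtgatgcagAAGATTCTAGTGTTC
Smarcad1 exons 3 to 4: agtgatcttctaaagAAGATTCTAGTGTTC
Slc30a7 exons 6 to 10: aatatttttactcagGCCATGGCCACAGTC
Slc30a7 exons 6 to 8: tcttatagttgtaagGCCATGGCCACAGTC
Slc30a7 exons 3 to 8: tcttatagttgtaagCCTAGGCTTGATCTC

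The genes spanned 44468 bp for Dcp2 (chr18:44380502-44424969, + strand), 326755 bp for Wdpcp (chr11:21572235-21898989, + strand), 73479 bp for Smarcad1 (chr6:65042583-65116061, + strand) and 68434 bp for Slc30a7 (chr3:115938973-116007406, - strand). The circles held between 2 and 10 exons and a median of 540.5 nt of spliced sequence (range 313 to 1364 nt), beside a median of 517.5 nt over all 15426 circles on exon edges. Their GC content had a median of 45.7% (range 36.3% to 52.4%), beside 48.0% overall. The introns before and after them had medians of 9174 and 8972.5 nt, beside 6122 and 4468 nt overall. Coding sequence filled 17 of the 18 circles completely (94.4%), beside 83.0% overall. The exception, the circle of Wdpcp exons 2 to 6, held the start codon of its host and 24 nt of the leader. The spliced length was a multiple of 3 in 6 circles (33.3%), beside 37.4% overall. With 7 and 6 circles, Wdpcp and Smarcad1 belonged to the 12.6% and 16.8% of the 4700 host genes with at least as many, whereas Slc30a7 with 3 and Dcp2 with 2 lay at or near the median host, which had 2.

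**Figure D1:**
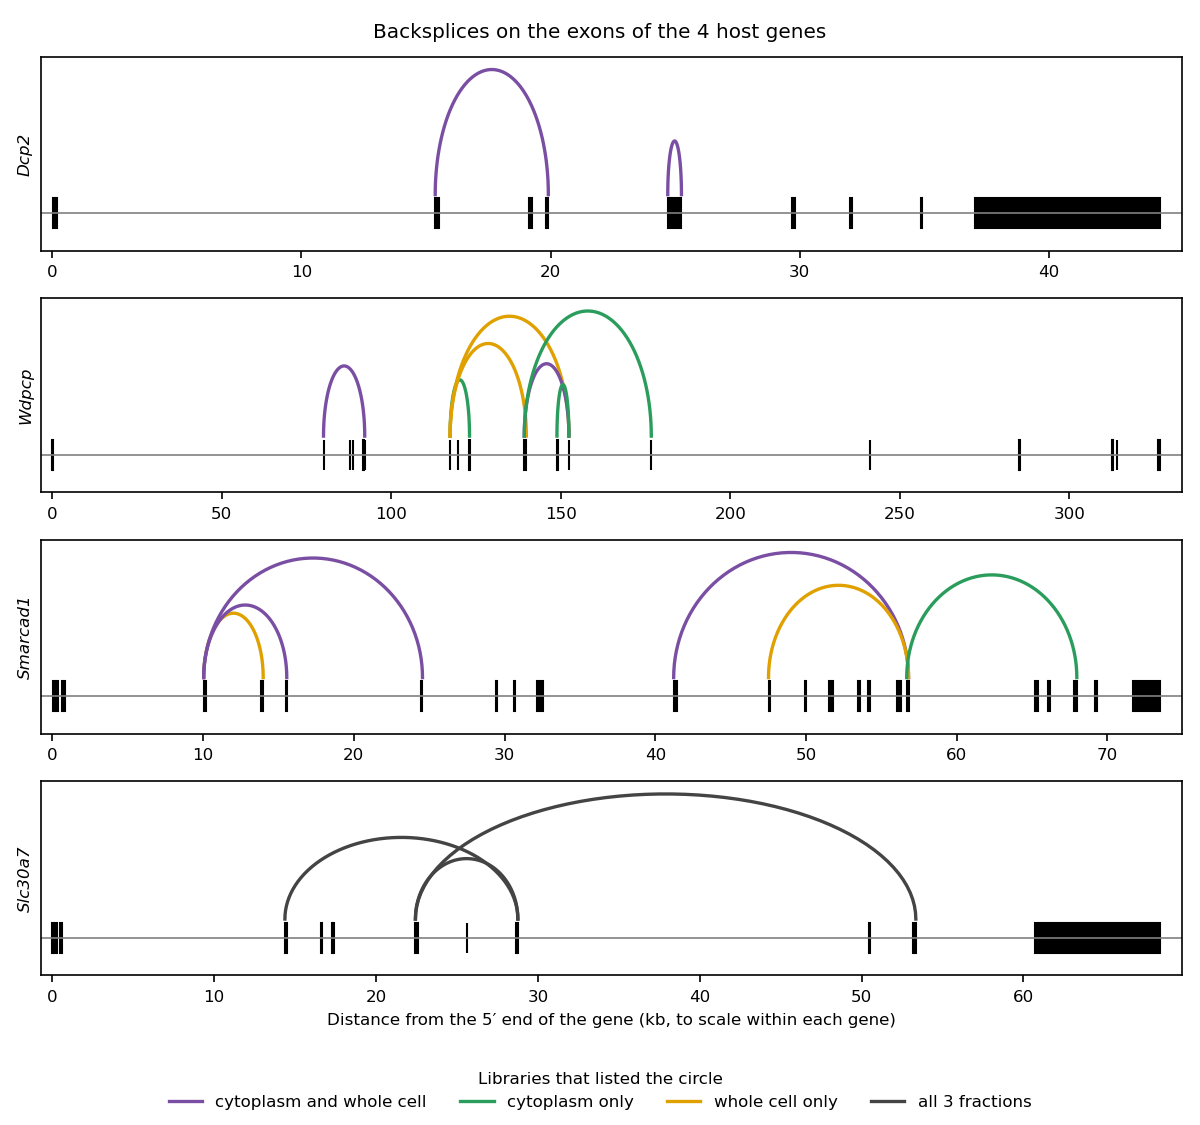
Backsplices (arcs) on the exons (black boxes) of the 4 host genes, with distance from the 5′ end of the gene in kb on the horizontal axis, to scale within each gene, and colour showing which fractions listed the circle in any library. Arcs of Wdpcp and Smarcad1 share starts at exons 7 and 3, and only the 3 Slc30a7 circles were listed in all 3 fractions.

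Depth set what could be seen. The nuclear libraries held 2189 to 4383 junction reads, the cytoplasmic ones 50629 to 81941 and the whole-cell ones 50341 to 58165, while the mRNA libraries held 16974062 to 22057323 counted reads. A count of 0 in the WT nuclear libraries allowed a share of up to 0.137% and 0.114% of the library (3 reads), against 0.00386% and 0.00366% in the WT cytoplasm, and these limits cover counting error only. Reads are shares of a library, so that more of 1 circle and less of the others cannot be told apart. WT and KO circRNA libraries were less alike than libraries of 1 genotype. Across circles listed in a fraction and chosen for at least 10 reads in another (the cytoplasm for nuclear and whole-cell libraries, the whole cell for cytoplasmic ones), Spearman's rho between a WT and a KO library was -0.0756 to 0.0188 in the nucleus, 0.0757 to 0.212 in the cytoplasm and 0.259 to 0.406 in whole cells, whereas replicates gave 0.322 to 0.450, 0.783 to 0.849 and 0.731 to 0.732. When circles were instead chosen by their summed reads in the same libraries, which favours circles high in 1 genotype, rho between genotypes was lower, at -0.336 to 0.0452 over the 3 fractions. The extraction protocol in the labels speaks of peripheral blood, so the cell type was checked in the mRNA libraries. All 8 fibroblast genes (among them Col1a1, Col1a2 and Vim) reached 1 FPKM in all 6 libraries. Of 6 blood and endothelial genes, 5 stayed under 1 FPKM (Hbb-bs had no read), and Cd68 had 2.31 to 5.60 FPKM. The 3 epithelial genes stayed under 1 FPKM.

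In the cytoplasm, 3 of the circles were strongly represented in both KO libraries and had no read in either WT library. The circle of Dcp2 exons 2 to 4 (chr18:44395873-44400415, 379 nt) had 0 and 0 reads in the WT libraries and 17 and 15 in the KO libraries. The circle of Wdpcp exons 7 to 9 (441 nt) had 0 and 0 reads in the WT and 14 and 14 in the KO libraries. The circle of Smarcad1 exons 3 to 6 (503 nt) had 0 and 0 reads in the WT and 16 and 14 in the KO libraries. The KO replicates were thus within a few reads of each other, and neither WT library had any, although the WT cytoplasmic libraries were the deeper ones. KO reads were set against a floor of 3 reads over both WT libraries after TMM scaling (a normalization trimming the most extreme ratios). They came to 15.6-fold (Dcp2), 13.6-fold (Wdpcp) and 14.6-fold (Smarcad1) that floor, and without scaling to 10.7-fold, 9.33-fold and 10.0-fold. These ratios take the KO reads as exact, describe the contrast that chose the genes, and are not lower limits. At least 14 reads in both KO libraries with none in WT were found for 7 of the 9648 circles listed in the cytoplasm (0.0726%), of which these are 3. Reads in both KO and in neither WT library, whatever their number, were found for 170 circles (1.76%), and the mirror pattern, reads in both WT and in neither KO library, for 230 (2.38%). The circle closest to this pattern without showing it was Smarcad1 exons 19 to 22, with 0 and 1 WT and 5 and 4 KO reads.

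**Figure D2:**
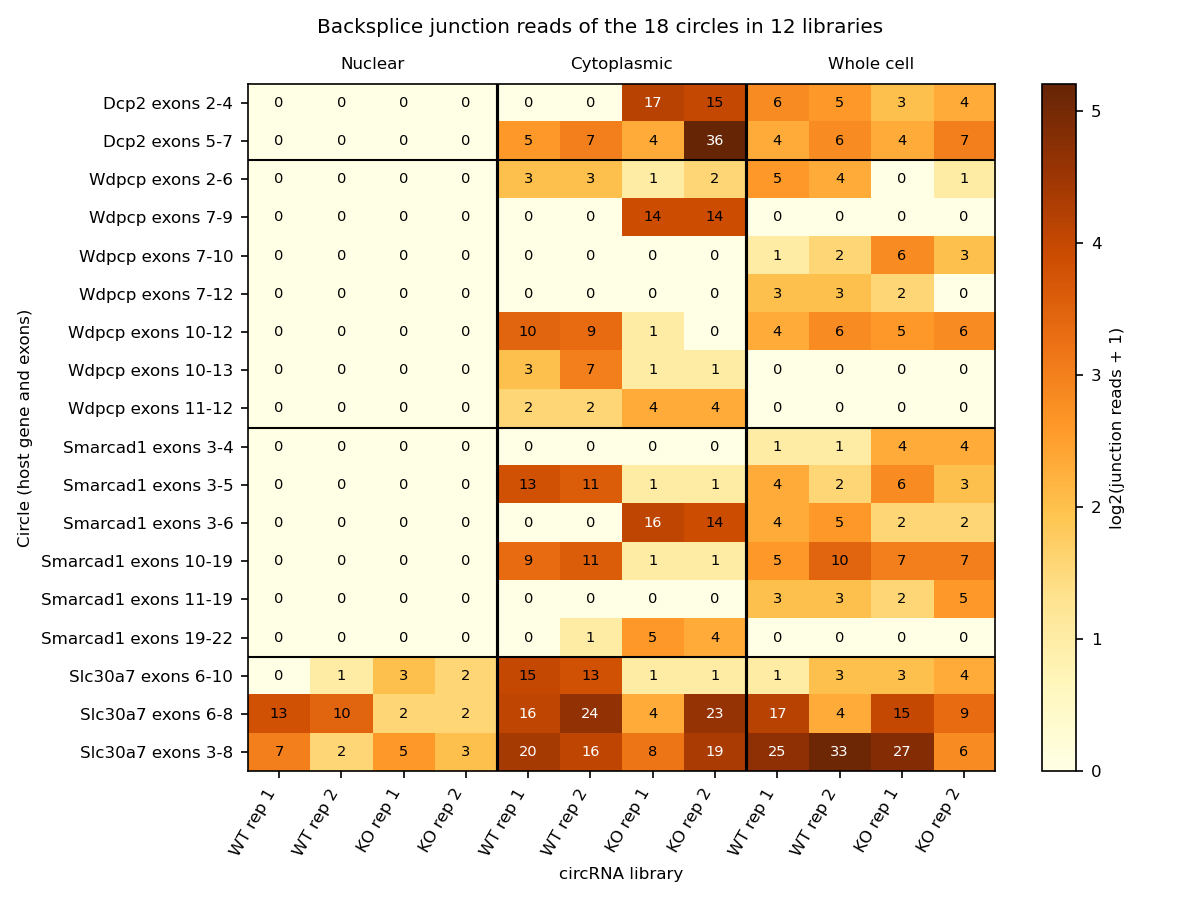
Junction reads of the 18 circles (vertical axis, host gene and exons) in the 12 circRNA libraries (horizontal axis), printed in each cell as deposited and coloured by log2(reads + 1). In the cytoplasm the circles of Dcp2 exons 2 to 4, Wdpcp exons 7 to 9 and Smarcad1 exons 3 to 6 have 14 to 17 reads in each KO library and 0 in both WT libraries.

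Below, these 3 circles are called KO-only in the cytoplasm, a name that covers the cytoplasmic libraries alone. Other circles of the same hosts had the opposite cytoplasmic pattern. The circle of Smarcad1 exons 3 to 5, which shares its first exon with the circle KO-only in the cytoplasm and ends 1 exon earlier, had 13 and 11 reads in the WT cytoplasm and 1 and 1 in KO, an 8.22-fold higher WT level (95% counting interval 2.04 to 71.8). The circle of Smarcad1 exons 10 to 19 had 9 and 11 WT and 1 and 1 KO reads, 6.85-fold higher in WT (1.66 to 60.5). The circle of Wdpcp exons 10 to 12, which starts at the exon after the end of exons 7 to 9, had 10 and 9 WT and 1 and 0 KO reads, 13.0-fold higher in WT (2.07 to 541). In each of these circles both WT libraries lay above both KO libraries. The intervals cover counting error on pooled reads alone, and as this contrast chose the genes they are a description. Opposite patterns in a single host thus met in the sum over its circles. All cytoplasmic circle reads of Smarcad1 together came to 22 and 23 in WT and 23 and 20 in KO, and those of Wdpcp to 18 and 21 in WT and 21 and 21 in KO. After scaling, the summed Smarcad1 circles had 283 ± 17.6 reads per 1000000 circRNA reads in WT and 399 ± 84.8 in KO, and those of Wdpcp 245 ± 3.76 and 387 ± 44.6 (SD, n = 2).

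The remaining cytoplasmic circles of Wdpcp had few reads. Exons 10 to 13 had 3 and 7 WT and 1 and 1 KO reads, exons 11 to 12 had 2 and 2 WT and 4 and 4 KO reads, and exons 2 to 6 had 3 and 3 WT and 1 and 2 KO reads. The second Dcp2 circle, exons 5 to 7 (374 nt), had 5 and 7 WT and 4 and 36 KO reads. In reads, the KO libraries of this circle lay on both sides of the WT libraries. After scaling, KO replicate 1 lay between the WT libraries and KO replicate 2 above both. KO replicate 2 alone supplied 36 of the 40 KO reads of this circle. The summed Dcp2 circles, with 5 and 7 WT and 21 and 51 KO reads, were higher in both KO libraries, and the circle of exons 2 to 4 supplied 17 of the 21 reads in KO replicate 1 and 15 of the 51 in replicate 2.

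Slc30a7 had WT reads for each of its circles. In the cytoplasm its circle of exons 6 to 10 (578 nt) had 15 and 13 WT and 1 and 1 KO reads, 9.60-fold higher in WT (95% counting interval 2.42 to 83.1). Its circle of exons 6 to 8 (337 nt) had 16 and 24 WT and 4 and 23 KO reads, and that of exons 3 to 8 (666 nt) 20 and 16 WT and 8 and 19 KO reads. The first separated the genotypes, while in the others KO replicate 1 lay below both WT libraries and KO replicate 2 lay between them in reads and above both after scaling. Over the 14 circles listed in the cytoplasm, 13 had at least 10 reads over the 4 libraries, and in 10 of these the scaled reads of WT and KO did not overlap, 5 higher and 5 lower in KO. Of all 8917 cytoplasmic circles with as many reads, 83.0% did not overlap (38.6% higher and 44.4% lower in KO) and 53.5% had an adjusted p under 0.05 (edgeR), so that separation as such was the usual state of a cytoplasmic circle. Nothing is read from the members' count, since this contrast chose them.

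**Figure D3:**
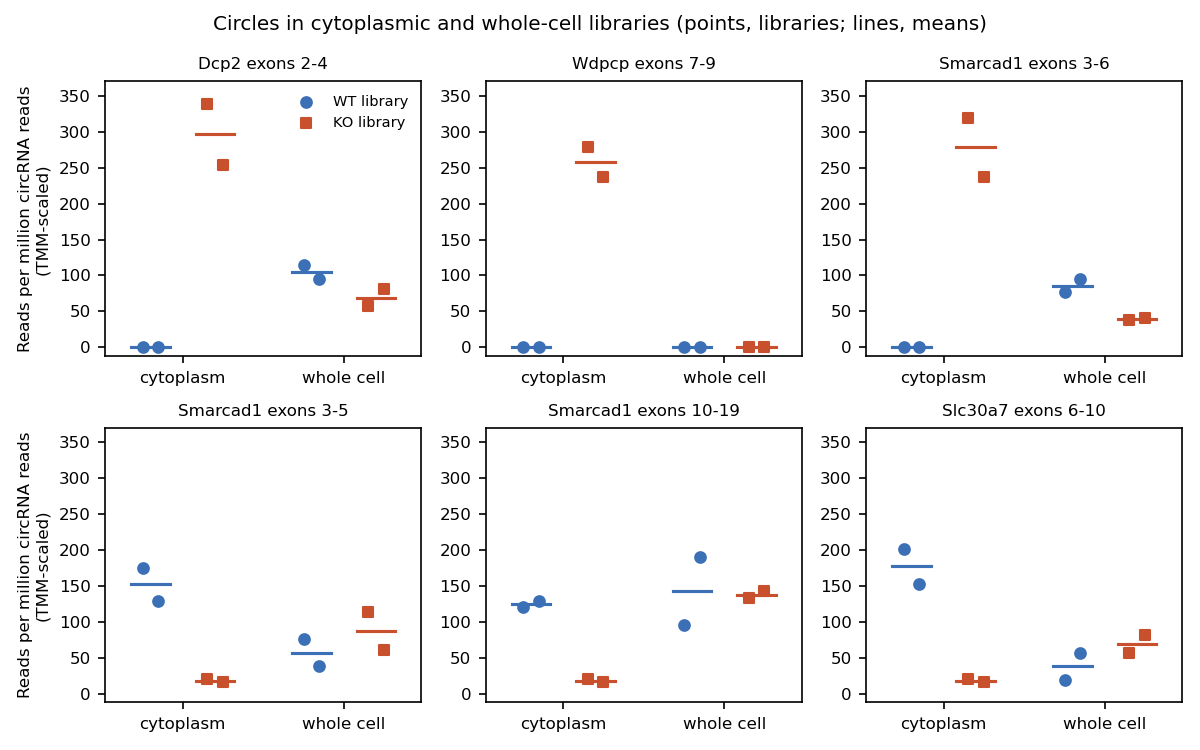
Scaled junction reads (reads per 1000000 circRNA reads after TMM, vertical axis) of 6 circles in cytoplasmic and whole-cell libraries (horizontal axis), with WT libraries as circles, KO libraries as squares and group means as lines. The circles in the upper panels are at 0 in the WT cytoplasm, and in whole cells those of Dcp2 and Smarcad1 have reads in both genotypes and lie lower in KO.

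The whole-cell libraries, which played no part in choosing the genes, did not repeat the cytoplasmic pattern. The circle of Dcp2 exons 2 to 4 had 6 and 5 reads in the WT whole-cell libraries and 3 and 4 in KO. The circle of Smarcad1 exons 3 to 6 had 4 and 5 WT and 2 and 2 KO reads. In both circles the 2 WT libraries lay above the 2 KO libraries, by 1 to 3 reads. The circle of Wdpcp exons 7 to 9 had no read in any of the 4 whole-cell libraries, although whole-cell RNA holds the cytoplasm as well. The whole-cell log2 fold change of KO against WT was -0.59 (SE 0.64, 95% confidence interval -2.04 to 0.85) for the Dcp2 circle and -1.08 (SE 0.73, -2.75 to 0.59) for the Smarcad1 circle. Neither passed the test (edgeR quasi-likelihood, Benjamini-Hochberg adjusted p = 0.509 and 0.295), and the intervals reached up to a level 1.81-fold and 1.51-fold higher in KO. With single libraries left out, the value of the Dcp2 circle ranged from -1.04 (without WT replicate 2) to -0.0055 (without KO replicate 1), so that its whole-cell direction rests on few reads, and that of the Smarcad1 circle from -0.75 to -0.69. Of all 7 circles with at least 14 reads in both KO cytoplasmic libraries and none in WT, 5 had reads in both WT whole-cell libraries and 2 had no whole-cell read at all. Over all circles listed in the cytoplasm, these shares were 45.6% and 50.2%. The 5, of which 2 are the Dcp2 and Smarcad1 circles above, had a median whole-cell log2 fold change of -1.08, which is the Smarcad1 value itself. The median was -0.07 over all circles listed in the cytoplasm and tested in whole cells.

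Other circles of these hosts were seen in whole cells alone. The circle of Wdpcp exons 7 to 10 (1051 nt), which begins like the circle of exons 7 to 9, had 1 and 2 WT and 6 and 3 KO reads, a ratio of 3.09 (95% counting interval 0.771 to 17.7, edgeR adjusted p = 0.153). That of Smarcad1 exons 3 to 4 (344 nt), which begins like the circle of exons 3 to 6, had 1 and 1 WT and 4 and 4 KO reads, a ratio of 4.12 (0.822 to 39.8, edgeR adjusted p = 0.121). Both were higher in each KO library than in each WT library, and neither had a cytoplasmic read. The circles of Wdpcp exons 7 to 12, with 3 and 3 WT and 2 and 0 KO reads, and of Smarcad1 exons 11 to 19, with 3 and 3 WT and 2 and 5 KO reads, were likewise listed in whole cells only. Of the 14 member circles listed in each of the cytoplasm and the whole cell, 10 were listed in both, 71.4% of either list. Over all circles, those listed in both fractions made up 49.8% of the cytoplasmic and 44.9% of the whole-cell list.

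The largest whole-cell difference among the 13 member circles tested was that of Wdpcp exons 2 to 6, which holds the start codon. It had 5 and 4 WT and 0 and 1 KO reads, 8.74-fold higher in WT (95% counting interval 1.21 to 383). The fitted log2 fold change was -2.85 (SE 0.84, 95% confidence interval -4.76 to -0.94) and did not pass the threshold (edgeR adjusted p = 0.0597). When libraries were scaled by their totals alone, the same circle passed (edgeR adjusted p = 0.0378). Without KO replicate 1 its log2 fold change was -1.62 (edgeR adjusted p = 0.421), and without any other library it had too few reads to be tested. Other circles did not separate the genotypes in whole cells, among them 3 of those with at least 19 WT reads and at most 2 KO reads in the cytoplasm. Smarcad1 exons 10 to 19 had 5 and 10 WT and 7 and 7 KO reads (log2 fold change -0.06, 95% confidence interval -1.22 to 1.11), and Wdpcp exons 10 to 12 had 4 and 6 WT and 5 and 6 KO reads (0.18, -1.18 to 1.53). Smarcad1 exons 3 to 5 had 4 and 2 WT and 6 and 3 KO reads (0.61, -0.97 to 2.18), and the second Dcp2 circle, exons 5 to 7, had 4 and 6 WT and 4 and 7 KO reads (0.18, -1.18 to 1.53). The WT and KO libraries overlapped in all 4 of these circles.

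The circles of Slc30a7 exons 3 to 8 and 6 to 8 had the most whole-cell reads of all members. Exons 3 to 8 had 25 and 33 WT and 27 and 6 KO reads (log2 fold change -0.79, SE 0.68, edgeR adjusted p = 0.403). Exons 6 to 8 had 17 and 4 WT and 15 and 9 KO reads (log2 fold change 0.23, SE 0.66, edgeR adjusted p = 0.829). Exons 6 to 10 had 1 and 3 WT and 3 and 4 KO reads (log2 fold change 0.81, SE 0.80, edgeR adjusted p = 0.469). Replicates of a genotype were far apart for the first pair, with KO replicate 2 low for exons 3 to 8 and WT replicate 2 low for exons 6 to 8.

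Over the whole cell, no member passed. Of the 18 circles, 13 had at least 10 reads over the 4 whole-cell libraries and were tested, and 0 of the 13 had an adjusted p under 0.05 with edgeR, as was the case for all 8903 circles tested (0% called, smallest adjusted p = 0.0580, with 3405 at an unadjusted p under 0.05). DESeq2 called 8 of the 8903 and none of the 13. Scaled whole-cell reads did not overlap in 5 of the 13 (2 higher and 3 lower in KO), beside 70.3% of all circles tested (33.3% higher and 37.0% lower). Summed over all circles of a host, the whole-cell reads of the WT and then the KO libraries were 10 and 11 against 7 and 11 for Dcp2, 13 and 15 against 13 and 10 for Wdpcp, 17 and 21 against 21 and 21 for Smarcad1, and 43 and 40 against 45 and 19 for Slc30a7. None of the 4 sums passed, beside 13.5% of the 3701 host genes tested. The log2 fold changes were -0.18 (95% confidence interval -1.15 to 0.79) for Dcp2, -0.24 (-1.09 to 0.61) for Wdpcp, 0.19 (-0.49 to 0.86) for Smarcad1 and -0.34 (-1.13 to 0.45) for Slc30a7, with edgeR adjusted p = 0.830, 0.721, 0.728 and 0.560. As ratios of KO to WT, the 4 intervals reached from 0.452 to 1.82, and changes within them were not detectable at this depth.

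**Figure D4:**
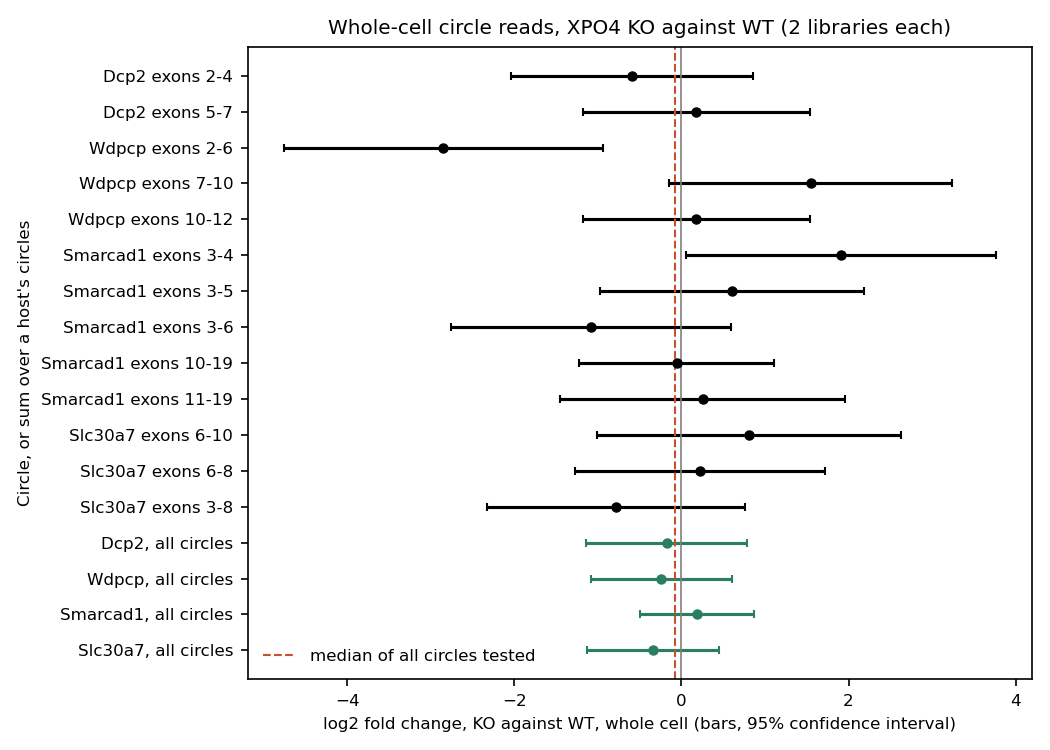
Log2 fold change of KO against WT in whole cells (horizontal axis, bars are 95% confidence intervals from edgeR) for the 13 circles tested (black) and the sums over each host's circles (green), with the median of all circles tested as a dashed line. The sums lie between -0.34 and 0.19, and the circle of Wdpcp exons 2 to 6 lies lowest at -2.85.

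In the nucleus, reads were found for Slc30a7 only. Its circle of exons 6 to 8 had 13 and 10 WT and 2 and 2 KO reads. Exons 3 to 8 had 7 and 2 WT and 5 and 3 KO reads, and exons 6 to 10 had 0 and 1 WT and 3 and 2 KO reads. The first was lower in both KO libraries although these held more junction reads in all, and the last, which was higher in both KO libraries, was the circle that was lower in both KO libraries in the cytoplasm. Together the Slc30a7 circles had 20 and 13 WT and 10 and 7 KO nuclear reads. Of all 651 nuclear circles tested 10.1% passed, and of the nuclear host sums 12.1% (edgeR). For the circles of Dcp2, Wdpcp and Smarcad1, a nuclear change was not detectable at this depth, where no member circle had a read.

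mRNA of the hosts was measured apart from their circles, and of the 4 genes Smarcad1 passed the test. Direction rests on the sample titles, because the heading inside each mRNA table names the other genotype. Xpo4 did not settle it, with 3.08, 2.94 and 2.91 FPKM in the libraries titled WT and 3.71, 2.64 and 3.76 in those titled KO (log2 fold change 0.18, edgeR adjusted p = 0.193). Without KO replicate 2 the Xpo4 difference passed (0.34, edgeR adjusted p = 0.000252), higher in KO. FPKM is the read count of a gene scaled to its length and to the size of the library.

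Smarcad1 mRNA had 5.70, 6.34 and 6.04 FPKM in the libraries titled WT and 4.38, 3.82 and 4.37 in those titled KO. All KO libraries lay below all WT libraries. The KO level was 0.695 of the WT level (log2 fold change -0.52, SE 0.069, 95% confidence interval -0.67 to -0.38, edgeR adjusted p = 3.41e-05). The summed whole-cell circles of the gene had a log2 fold change of 0.19. Its 95% confidence interval, -0.49 to 0.86, overlaps that of the mRNA, and whether circles and mRNA of Smarcad1 differed was not tested. The median mRNA log2 fold change of all genes tested on chromosome 6, which holds Smarcad1, was -0.13, beside -0.00 over all genes. The part of this in the Smarcad1 mRNA difference was not tested. Of the 14688 genes tested 48.7% passed, beside which 1 host of 4 is no more than the background.

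The other hosts did not pass. Dcp2 had 6.27, 5.29 and 5.22 FPKM in WT and 5.17, 4.46 and 5.81 in KO (log2 fold change -0.12, 95% confidence interval -0.33 to 0.09, edgeR adjusted p = 0.325). Wdpcp, the least abundant, had 1.19, 1.45 and 1.32 FPKM in WT and 1.24, 1.30 and 1.14 in KO (-0.10, -0.39 to 0.18, edgeR adjusted p = 0.541). Slc30a7 had 4.88, 4.55 and 4.75 FPKM in WT and 5.06, 4.998 and 5.33 in KO (0.12, -0.01 to 0.25, edgeR adjusted p = 0.129). The Slc30a7 libraries did not overlap, which was so for 57.8% of all genes tested, and the median log2 fold change on its chromosome 3 was 0.16. WT and KO overlapped for Dcp2 and Wdpcp. On the opposite strand, Mdh1, Pgam1-ps1 and Gm12047 overlap Wdpcp, and Gm43106, Gm6649 and Mir669n overlap Slc30a7. Reads were counted without regard to strand, so that reads from overlapping exons, if any, cannot be assigned to a single gene.

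**Figure D5:**
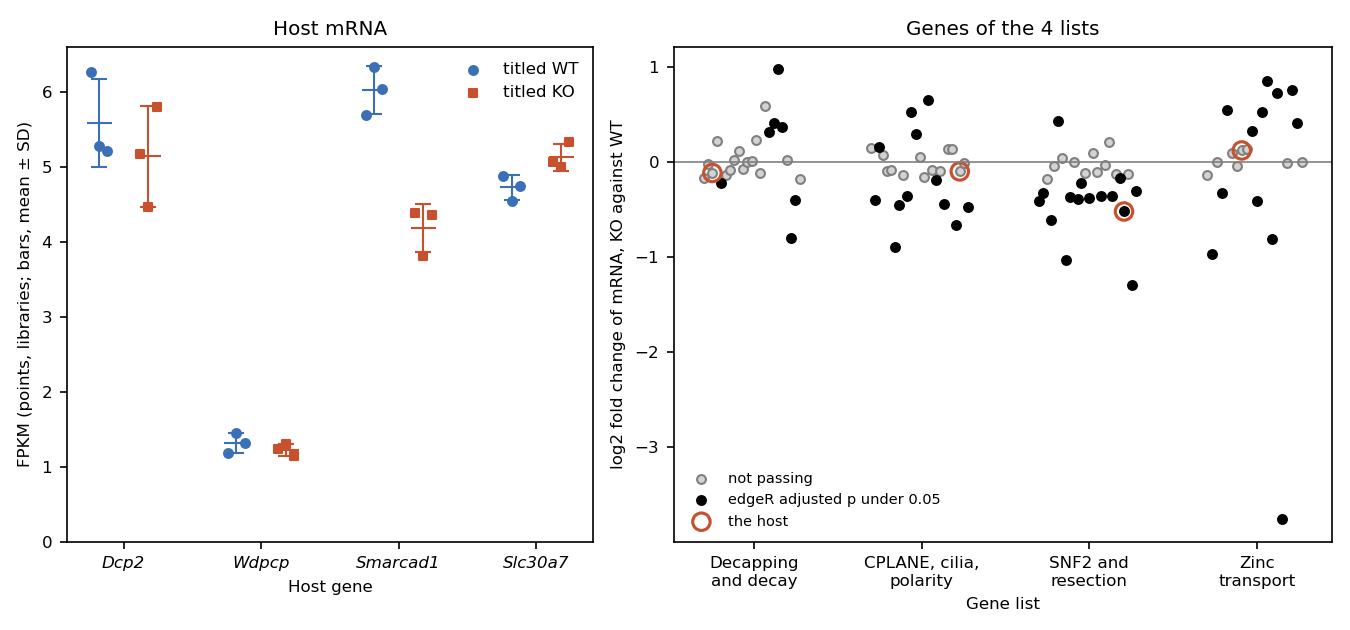
Left, FPKM (vertical axis) of the 4 host genes in the 3 WT and 3 KO mRNA libraries as titled, with mean ± SD; right, log2 fold change of KO against WT for the genes of the 4 lists, with genes of edgeR adjusted p under 0.05 in black and the host of each list ringed. Smarcad1 alone among the hosts passes, at -0.52, beside 48.7% of all genes tested. In its list 14 of the 26 genes pass as lower in KO, beside 23.6% of all genes tested.

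Genes related to each host by pathway or family were examined as lists. Of 23 decapping and decay genes, which include the Dcp2 partners Dcp1a and Edc4 and the exonuclease Xrn1, 4 rose, 3 fell and 16 did not pass (median log2 fold change -0.01, beside -0.00 for all genes). Pnrc1, which binds the decapping enzyme, fell from 29.2 ± 0.655 to 16.7 ± 1.64 FPKM (log2 fold change -0.80, SD, n = 3, edgeR adjusted p = 1.32e-06). Its relative Pnrc2 fell by 0.41 on the log2 scale and the hydrolase Nudt3 rose by 0.36. Of the 25 tested genes of cilia and planar polarity, 4 rose, 8 fell and 13 did not pass (median -0.10). The planar polarity genes moved in both directions. Vangl2 (log2 fold change -0.67) and the receptor Fzd3 (-0.89) fell, and Prickle1 rose by 0.65.

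The 26 genes listed for SNF2-family remodelling and end resection also hold Trim28 and Ehmt2. Of these 26, 1 rose, 14 fell and 11 did not pass (median -0.21). Ep400, an ATPase of the TIP60 complex, fell from 26.7 ± 2.04 to 13.1 ± 1.86 FPKM (log2 fold change -1.03, SD, n = 3, edgeR adjusted p = 8.22e-07). Smarca2, an ATPase of the BAF complex, fell by 0.36 and the nuclease Mre11a, which starts end resection, by 0.38. The gene that rose was Dna2, a resection nuclease, by 0.43 (named after its value was seen). Of 20 tested genes of zinc transport and storage, 7 rose, 5 fell and 8 did not pass (median 0.04). The importer Slc39a13 rose from 10.8 ± 0.522 to 19.6 ± 0.321 FPKM (log2 fold change 0.85, SD, n = 3, edgeR adjusted p = 7.58e-08) and Slc39a3 rose by 0.72, whereas Slc39a14 fell by 0.81. The counts of all 4 lists stood beside a background of 25.1% of genes higher and 23.6% lower in KO.

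The hosts also differed in which other genes they resembled. Summed circle reads of each host were compared with those of 1363 genes with at least 100 reads over the 12 libraries, as the Pearson correlation of log2 scaled reads. Wdpcp was most like Tmem245, Brip1os and Creb3l2 (r = 0.997, 0.996 and 0.996), and Smarcad1 most like Ccdc88a, Igf2bp3 and Fndc3b (r = 0.999, 0.998 and 0.998). Dcp2 was most like Glce, Dag1 and Acvr1b (r = 0.977, 0.977 and 0.974), and Slc30a7, with its nuclear reads, most like 2610307P16Rik, Dnajc5 and Sept9 (r = 0.951, 0.938 and 0.934). The points are 12 libraries of unequal depth in 3 fractions that all genes share, and the values are a description. Dcp2, Wdpcp and Smarcad1 had no nuclear read. Their nuclear values therefore came from the count added before the log, as for any gene without nuclear reads. How much of r rests on this was not tested.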

How the data were processed

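The authors removed adapters from the circRNA reads with cutadapt (version 4.1), predicted backsplices with find_circ (version 1.2) on GRCm38 and deposited a count of junction reads per circle and library; filters before deposition are not given in the sources used here. Although the methods name TPM, these deposited counts are whole numbers with unequal totals and were used as such. For mRNA, the authors aligned reads with HISAT2 (version 2.0.5) and deposited featureCounts (version 2.0.0) gene counts without normalization.

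Genotype, fraction and replicate came from the sample titles. Circles absent from a library were entered as 0. Each fraction was fitted over all its circles with at least 10 reads over 4 libraries, and mRNA over all 6 libraries after filterByExpr, with edgeR (version 4.0.16, R 4.3.3; TMM, glmQLFit and glmQLFTest, Benjamini-Hochberg adjustment, threshold 0.05). Circle reads were also summed over each gene's span and tested with the same scaling. DESeq2 (version 1.42.0), other scalings, no filter, a replicate block and leaving out each library were alternatives. SEs were derived from edgeR's p. FPKM was computed from TMM-scaled totals and the featureCounts length. Counting intervals are exact binomial (Clopper-Pearson) on reads pooled over the libraries of a genotype. They leave out the spread between replicates and are too narrow where replicates differ by more than sampling noise. Tests of 2 against 2 libraries over single values were not used, since their smallest exact permutation p is 0.333. Replicates differed by more than sampling noise (chi-square per feature 1.09 to 2.38 for circles, 2.92 to 11.3 for mRNA). On simulated counts the whole-cell fit recovered 40.8% of 196 planted 4-fold changes among 8040 circles. The mRNA fit recovered 46.5% of 200 planted 2-fold changes among 14610 genes. Changes were planted only in features with more reads, all others were left unchanged, and the spread was set beforehand. These shares therefore do not give the power for member circles with few reads. Exons came from GENCODE M21 and sequences from the GRCm38 genome.

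The members, gene lists and tests were chosen with earlier results of these data known. Circles were named as those with cytoplasmic reads in KO only or in WT only (none was), the most abundant ones of each host and all nuclear ones, and the rest were given by their reads. From each mRNA list the host and the 3 genes of smallest p were named, and the 3 hosts most alike by correlation.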

Additional observations from a re-analysis of the deposited data

Results flagged for a closer look

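For 3 circles the libraries of the 2 genotypes separated in opposite directions in 2 fractions, and whether the fractions differed was not tested. Separation as such was common, at 83.0% of cytoplasmic and 70.3% of whole-cell circles with at least 10 reads. How many of all circles separated in opposite directions was not counted. As cytoplasmic values also chose the genes, nothing is read from the number of these circles. The circle of Dcp2 exons 2 to 4 had 297 scaled reads per 1000000 in the KO and 0 in the WT cytoplasm, with both KO libraries higher, but 69.2 in KO and 105 in WT whole cells, with both KO libraries lower. The circle of Smarcad1 exons 3 to 6 had 278 in the KO and 0 in the WT cytoplasm, but 39.4 in KO and 85.9 in WT whole cells. The circle of Slc30a7 exons 6 to 10 had 826 scaled reads per 1000000 in the KO and 292 in the WT nuclei, from 5 reads and 1 read, but 18.4 in the KO and 177 in the WT cytoplasm.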

How the results depend on the processing

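Libraries that share a replicate number did not move together (correlation of their deviations from group means -0.0132 in nuclear, -0.00430 in cytoplasmic and 0.00457 in whole-cell libraries, and 0.119, 0.0815 and -0.143 for the mRNA pairs), so numbers were not taken as pairs. With the replicate block, 1 member circle (Wdpcp exons 2 to 6, edgeR adjusted p = 0.0458) and 2054 of 8903 whole-cell circles passed in place of 0, and 756 host sums in place of 498. Scaling by totals alone passed 1 member (the same circle) and 2003 whole-cell circles, DESeq2 8, totals taken before the filter (an alternative chosen after seeing the data) 280, and leaving out each library 0 to 508. Nuclear calls are given for all circles and all host sums only, since the Slc30a7 circles were chosen with their nuclear values known. Among all nuclear circles, of which 66 passed, no scaling and DESeq2 passed 0, scaling by totals 38 and no filter 40. Leaving out each library passed 3 to 29 of all nuclear circles. Among the higher and lower calls in nuclei, 16.7% were higher in KO, 26.3% with scaling by totals, 85.0% without KO replicate 1, 72.4% without KO replicate 2 and 0% without either WT replicate. For whole-cell host sums, no scaling passed 0, DESeq2 3, no filter 230 and leaving out each library 0 to 279. Among all nuclear host sums, of which 68 passed, no scaling and DESeq2 passed 0, and leaving out each library 0 to 57.

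Among tested values, signs turned only when a library was left out; in the cytoplasm, the log2 ratio of Slc30a7 exons 3 to 8, 0.07 after TMM, was -0.42 without scaling. The range of the whole-cell log2 fold change was then -0.73 to 0.35 for Smarcad1 exons 10 to 19, -0.0653 to 1.15 for exons 11 to 19 and -0.12 to 1.35 for exons 3 to 5, -0.34 to 0.92 for Dcp2 exons 5 to 7, -0.34 to 0.70 for Wdpcp exons 10 to 12, and -1.80 to 0.29 for Slc30a7 exons 3 to 8, -0.79 to 1.35 for exons 6 to 8 and -0.0011 for exons 6 to 10. It was -0.51 to 0.52 for the summed circles of Dcp2, -0.60 to 0.28 for Wdpcp, -0.22 to 0.59 for Smarcad1 and -0.72 to 0.51 for Slc30a7. The nuclear value of Slc30a7 exons 3 to 8 ranged from -2.11 to 0.15. The cause of these shifts was not tested, and fewer libraries also meant fewer circles with 10 reads. The Smarcad1 mRNA call held in all alternatives run. No member circle had more than 36 reads in a library, which limits every whole-cell interval.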

Other observations

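Among the genes of the 4 lists, Slc39a4, a zinc importer of the plasma membrane, had the lowest log2 fold change of mRNA, -3.76 (edgeR adjusted p = 9.3e-05), at a low level of 0.607 ± 0.167 FPKM in the libraries titled WT and 0.0436 ± 0.0477 in those titled KO (SD, n = 3). The metallothionein Mt2, which binds zinc, fell by 0.98 on the log2 scale, and the exporter Slc30a1 fell by 0.33, while Slc39a7 rose by 0.76 and Slc30a4 by 0.55. These genes were named after their values were seen.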
